A study of Mus musculus with 2 samples.

Results

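The genes of oxidative phosphorylation were followed in prostate tumours of 2 mice: the subunits of respiratory complexes I to IV and of the ATP synthase, with cytochrome c. Members were taken by symbol from the deposited count table, as the rows named Nduf (a, b, c, s or v), Uqcr, Atp5 or Cox4 to Cox8, the protein-coding genes named mt-Nd, mt-Co, mt-Atp and mt-Cytb, and Sdha, Sdhb, Sdhc, Sdhd and Cycs. This gave 105 of the 27376 genes in the table, 13 encoded by the mitochondrial genome and 92 by the nucleus. The symbols also take in 4 assembly factors of complex I (Ndufaf1 to Ndufaf4) and 4 genes that are named alike but are not subunits. Among the latter, Cox4nb belongs to a complex of the endoplasmic reticulum and Atp5l-ps1 is a pseudogene.

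The study compared tumours of age-matched mice of 2 genotypes, named Bcat_Only and Met_Bcat. Each genotype has 1 library, from fresh tumour tissue of a mouse aged 16 months. In the table, the column of Bcat_Only is headed with an exon allele of beta-catenin and a Cre driven by PB, whereas that of Met_Bcat is headed with no allele, and the labels leave the MET allele undescribed. PB is the usual short name of the probasin promoter, which is active in prostate epithelium. Since no genotype had a second library, nothing could be tested across replicates, and every difference here lies between these libraries and not between the genotypes. Intervals are exact 95% intervals for counting error only, and they treat every read as independent. No molecular identifiers mark which PCR reads share a molecule, so the intervals may be too narrow even for counting error.

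The respiratory chain passes electrons from NADH and succinate to oxygen and pumps protons, and the ATP synthase uses the proton gradient to make ATP. Complexes I, III, IV and V are built from subunits of both genomes, while complex II is made of nuclear-encoded subunits alone. The mitochondrial genes are transcribed from both strands of a small circular genome as long precursors that are then cut into single RNAs, whereas each nuclear gene has its own promoter. Secretory epithelium of the prostate is known for exporting citrate that other tissues would oxidise to feed this chain.

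The libraries held 19301062 reads assigned to genes in Bcat_Only and 20117724 in Met_Bcat. Levels are given as CPM, the usual counts per scaled library size after TMM scaling, and 14354 genes averaged at least 1 CPM. A gene was called higher or lower in Met_Bcat where its whole interval lay 2-fold or more from equality. The tissue composition of the libraries differed. The summed CPM of 13 luminal epithelial markers was 3774 in Bcat_Only and 6033 in Met_Bcat, and that of 8 basal markers 815 and 1629. For 10 fibroblast markers it was 24773 and 1047, for 9 smooth muscle markers 725 and 119, for 11 neutrophil markers 7801 and 791, for 9 macrophage markers 3195 and 596, and for 9 B and plasma cell markers 16957 and 79.4. The part of these differences in the results on oxidative phosphorylation was not tested. In whole tissue, fewer cells of a type and less RNA per cell cannot be told apart.

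Summed over genes, the transcripts of the mitochondrial genome were 1.41-fold lower in Met_Bcat (1.41 to 1.42) and the nuclear-encoded members 1.18-fold higher (1.17 to 1.19), both short of 2-fold. All mitochondrial mRNAs together took 575557 reads in Bcat_Only, 2.98% of the library (2.97% to 2.99%), and 465707 reads in Met_Bcat, 2.31% (2.31% to 2.32%). The nuclear-encoded members took 118363 reads or 0.613% (0.610% to 0.617%) in Bcat_Only and 159547 reads or 0.793% (0.789% to 0.797%) in Met_Bcat. For each read of a nuclear-encoded member there were thus 4.86 mitochondrial mRNA reads (4.83 to 4.89) in Bcat_Only and 2.92 (2.90 to 2.94) in Met_Bcat, a quotient that does not depend on the scaling of libraries. It was 1.67-fold lower in Met_Bcat.

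Of the 105 members, 92 reached a mean of 1 CPM, 84 of the nuclear genes and 8 of the mitochondrial ones. The median log2 ratio of Met_Bcat to Bcat_Only was 0.22 over the nuclear members, with quartiles of 0.094 and 0.35, and −0.49 over the mitochondrial members. Over all 14354 genes it was 0.030, with quartiles of −0.53 and 0.33. These medians use CPM plus 0.5, and ratios of single genes are given without that addition. A ratio above 0 was found for 72 of 84 nuclear members and 0 of 8 mitochondrial ones, beside 52.3% of all genes. The sign of so small a nuclear median depends on scaling: when libraries were scaled to the luminal markers it was −0.12, with 24 of 84 ratios above 0, and under total counts it was 0.35, with 78 above 0. Under total counts the ratio of mt-Nd6 was above 0 too. The difference of the medians, −0.71, is nearly free of the scaling, and under each of 5 scalings 82 of the 84 nuclear ratios lay above those of all measured mitochondrial mRNAs other than mt-Nd6.

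**Figure D1:**
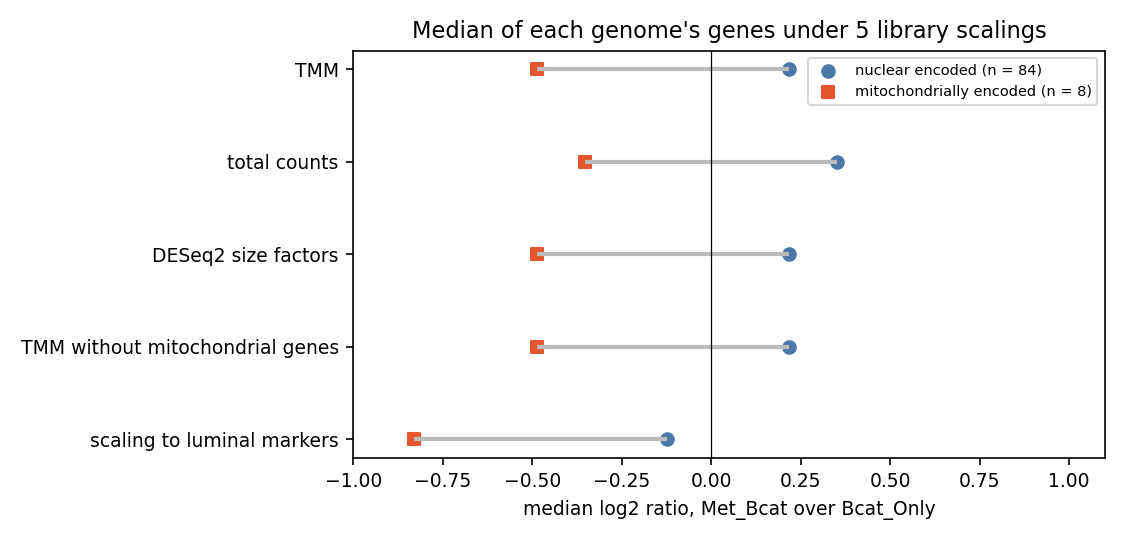
Median log2 ratio of Met_Bcat over Bcat_Only (horizontal axis) for the 84 nuclear-encoded (circles) and 8 mitochondrially encoded genes (squares), under 5 ways of scaling the libraries (rows). Scaling moves both points together, so that the nuclear median ranges from −0.12 to 0.35 while the gap between the points keeps a width of about 0.71.

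Few members differed by much. By the 2-fold rule 0 of 92 measured members were higher in Met_Bcat, beside 4.42% of all genes, and 2 were lower, Cox6b2 and mt-Co2, beside 14.6% of all genes. With a rule of 1.5-fold the counts were 0 and 3, beside 8.12% and 19.7% of all genes, and the gene added was Ndufa4l2. Counting intervals lay wholly above no difference for 57 nuclear members and wholly below for 3, where 37.8% and 36.0% of all genes did so. The interquartile range of the nuclear log2 ratios was 0.257, against 0.866 for all genes. Across the 84 nuclear members the log2 CPM of the libraries had a Pearson correlation of 0.967, and across all genes 0.831. These are descriptions across genes, which share library and depth and are not replicates.

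**Figure D2:**
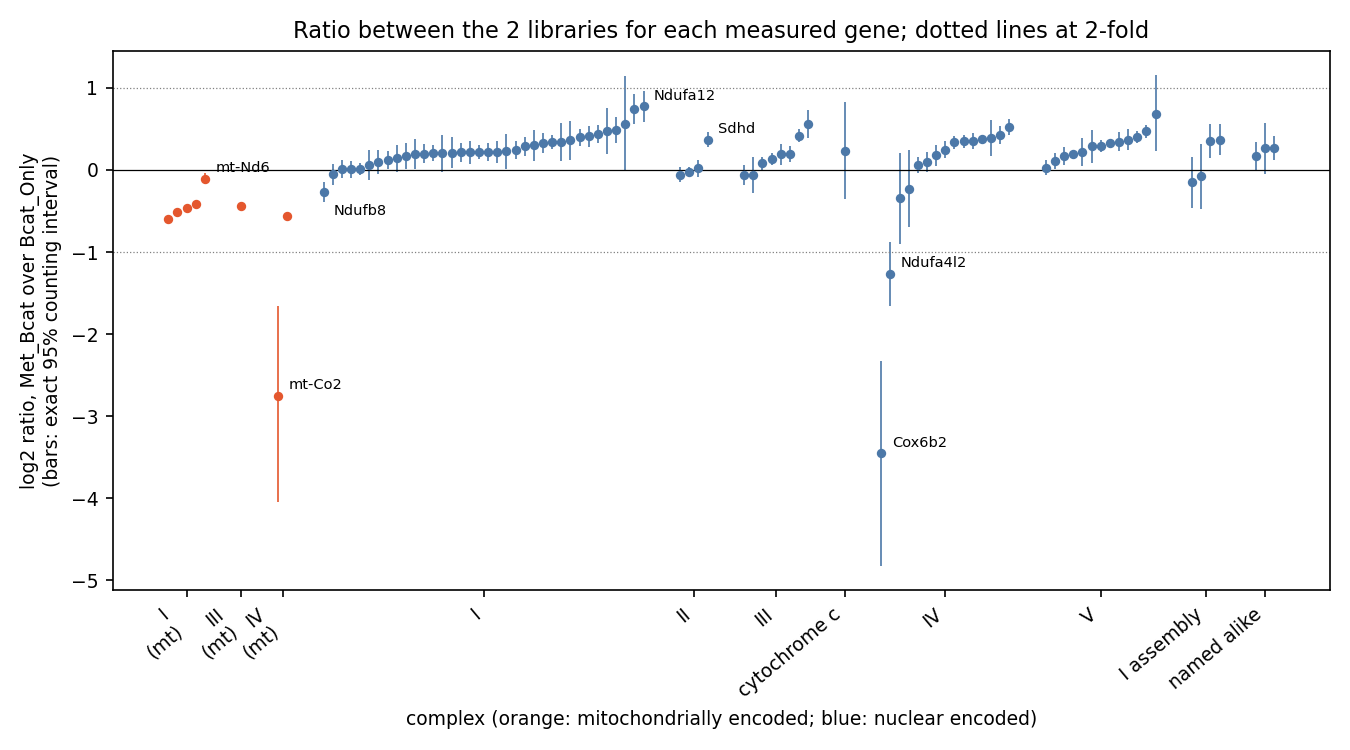
Log2 ratio of Met_Bcat over Bcat_Only (vertical axis) for each measured member, ordered by ratio within its complex (horizontal axis), with exact 95% counting intervals as bars. Orange points are mitochondrially encoded and blue points nuclear encoded. The orange points lie below 0, from −0.10 for mt-Nd6 to −2.75 for mt-Co2, and most blue points lie between 0 and 0.5, with Cox6b2 and Ndufa4l2 far below.

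The mitochondrial genome was examined gene by gene, in the order of its transcripts on the mm9 mitochondrial chromosome M. mt-Nd1 (2751 to 3707), a membrane subunit of complex I, had 104383 reads in Bcat_Only against 86517 in Met_Bcat, a log2 ratio of −0.46 (−0.48 to −0.45). mt-Nd2 (3914 to 4951), of the same membrane arm, had 47123 and 40293 reads, with a log2 ratio of −0.42 (−0.44 to −0.40). mt-Co1 (5328 to 6872), the catalytic subunit of cytochrome c oxidase, had the most reads of all members, 171436 and 132910, a log2 ratio of −0.56 (−0.57 to −0.55). All of these stand upstream of a stretch that was almost empty of reads in both libraries. Downstream of it, mt-Nd4 (10167 to 11544), a proton-pumping subunit of complex I, had 50510 and 40604 reads, with a log2 ratio of −0.51 (−0.53 to −0.49). mt-Nd5 (11742 to 13565), the pumping subunit at the far end of the membrane arm, had 68214 and 51472 reads, with a log2 ratio of −0.60 (−0.62 to −0.58). mt-Cytb (14145 to 15288), cytochrome b of complex III, had 129636 and 109440 reads, with a log2 ratio of −0.44 (−0.45 to −0.43). The 6 abundant mRNAs of this strand thus spanned log2 ratios of −0.60 to −0.42, and their intervals lay wholly below 0.

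mt-Nd6 (13552 to 14070) is the only protein-coding gene read from the other strand. It had 4186 reads in Bcat_Only and 4454 in Met_Bcat, or 227 and 211 CPM, with a log2 ratio of −0.10 (−0.17 to −0.04) that was 0.030 under total counts. This ratio was the nearest to 0 of the 8 measured mitochondrial mRNAs. Its reads per read of mt-Nd5 were 0.0614 (0.0595 to 0.0633) in Bcat_Only and 0.0865 (0.0839 to 0.0892) in Met_Bcat. The genes overlap by 14 bases on opposite strands. Since the strand setting of the counting is not given in the sources used here, the strand that reads came from cannot be told apart. This holds for the overlap and for the rest of mt-Nd6, so its level, its ratio and its reads per read of mt-Nd5 are uncertain.

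Per kb of exon, the levels within the mitochondrial genome formed tiers. mt-Cytb stood at 6151 CPM per kb in Bcat_Only and 4539 in Met_Bcat, mt-Co1 at 6023 and 4082, and mt-Nd1 at 5920 and 4289. The order of mt-Co1 and mt-Nd1 differed between the libraries. mt-Nd2 stood at 2464 and 1842, mt-Nd5 at 2030 and 1339 and mt-Nd4 at 1990 and 1398, with mt-Nd5 and mt-Nd4 in different order in the libraries. mt-Nd6 stood at 438 and 407. Of the 51-base stretches of mt-Co1 and mt-Nd4, 50.6% and 62.2% have an exact copy at another locus, as described below. The part of these copies in the levels and ranks of mt-Co1 and mt-Nd4 was not tested. The mitochondrial ribosomal RNAs, which are not members, were lower in Met_Bcat as well. The libraries were made with an mRNA kit, and its part in the counts of these RNAs and of mt-Nd6 was not tested. mt-Rnr1, of the small ribosomal subunit, had 12003 and 9258 reads, with a log2 ratio of −0.57 (−0.61 to −0.53), and mt-Rnr2, of the large one, 22815 and 15257, a log2 ratio of −0.77 (−0.80 to −0.74).

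The remaining 6 mitochondrial mRNAs had almost no reads. mt-Co2 (7013 to 7696), the subunit of complex IV that takes electrons from cytochrome c, had 47 reads in Bcat_Only and 8 in Met_Bcat, or 2.55 and 0.380 CPM. Its log2 ratio was −2.75 (−4.04 to −1.65), and it reached the minimum level through Bcat_Only alone. mt-Co3 (8607 to 9390), also of complex IV, had 13 and 4 reads. mt-Atp6 (7927 to 8607), which forms the proton path of the ATP synthase, had 6 and 3, and mt-Nd3 (9459 to 9806), of complex I, had 3 and 2. mt-Nd4l (9877 to 10173) and mt-Atp8 (7766 to 7969) had 0 reads in both libraries, where the limit for a count of 0 is 3 reads, or 0.163 CPM in Bcat_Only and 0.142 CPM in Met_Bcat. These 6 genes are neighbours, from the start of mt-Co2 to the end of mt-Nd4l.

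The empty stretch coincides with exact copies in the nuclear genome. Mouse chromosome 1 holds a run of unprocessed pseudogenes of mitochondrial DNA, and the transcripts of the GENCODE vM21 annotation (GRCm38) were searched for every window of 51 bases, the read length, that recurs at another locus. Of the windows of mt-Co2, 100% recurred elsewhere, of mt-Co3 99.9%, of mt-Atp6 99.5%, of mt-Nd4l 98.8% and of mt-Nd3 98.0%. Of mt-Nd1, mt-Nd6 and mt-Cytb 0% did, and of mt-Nd2 8.0% and mt-Nd5 7.2%. mt-Co1 and mt-Nd4 lay between, with 50.6% and 62.2%, and in mt-Nd4 the recurring windows spanned bases 1 to 876 of 1378. mt-Atp8 is the exception, with 0 reads and 0% of windows recurring in annotated transcripts. It shares 43 bases with mt-Atp6. The following stretches of the transcripts of mt-Co2 and of its chromosome 1 copy Gm28661, bases 301 to 390 of each, are shown because a read from either would carry the same letters.

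mt-Co2: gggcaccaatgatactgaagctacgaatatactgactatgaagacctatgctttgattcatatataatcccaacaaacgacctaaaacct

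Gm28661: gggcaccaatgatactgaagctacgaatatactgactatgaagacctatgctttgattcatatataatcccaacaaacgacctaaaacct

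Over their whole aligned length of 681 bases mt-Co2 and Gm28661 had 0 mismatches, as had mt-Co3 and Gm28437 over 783 bases, while mt-Nd3 and Gm28438 had 1 over 345. Of 7 such copies listed, 2 are in the count table: Gm10925, a copy of mt-Atp6, with 6 and 1 reads, and Gm10222, a copy of mt-Nd4l, with 0 and 0. How reads with more than 1 match were counted is not given in the sources used here, and the part of the copies in the low counts was not tested. Over the 5 mRNAs with over 97% of windows recurring, the summed reads numbered 69 in Bcat_Only against 17 in Met_Bcat, or 4.64-fold lower (2.70 to 8.42), against 1.41-fold (1.41 to 1.42) for all mitochondrial mRNAs summed. The call of mt-Co2 as lower rests on its 47 and 8 reads, in a transcript whose windows all have a copy.

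**Figure D3:**
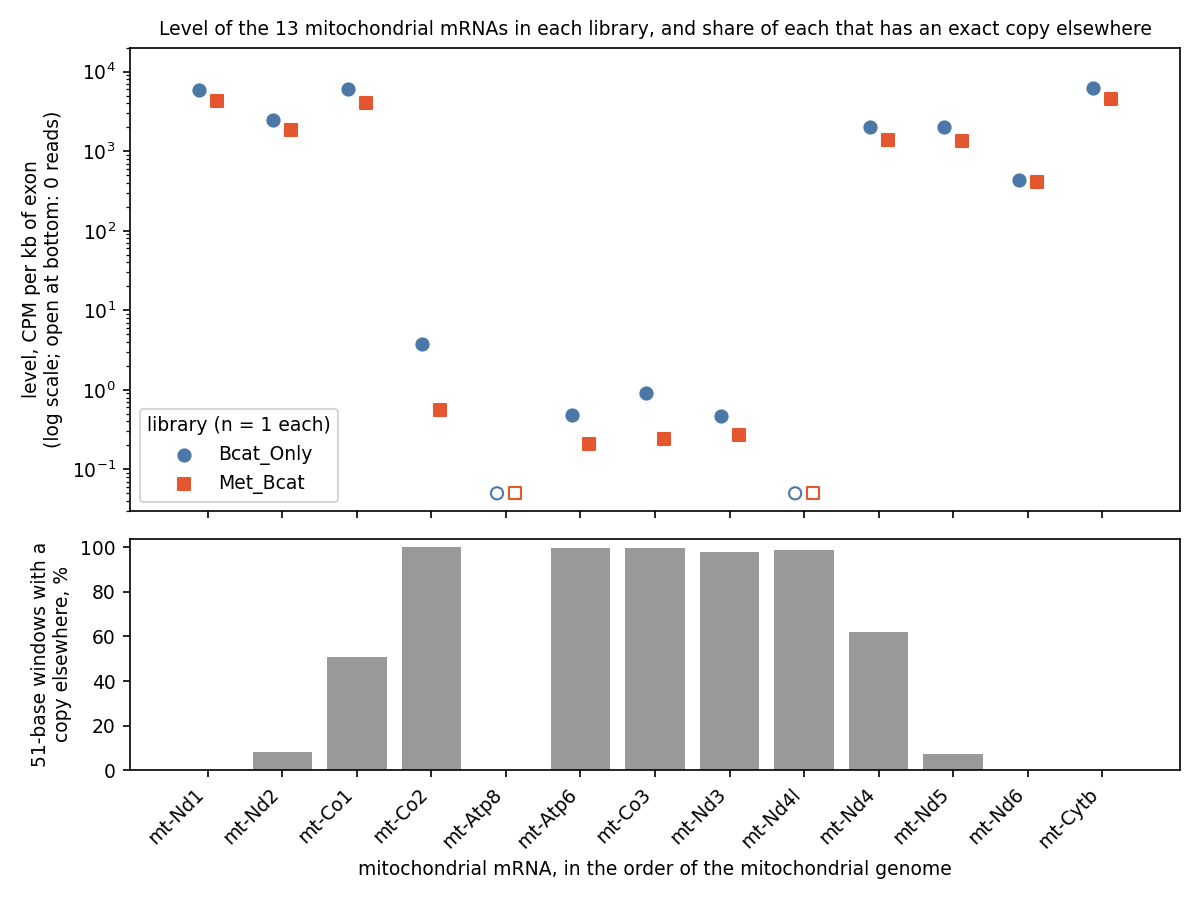
Upper panel: level of the 13 mitochondrial mRNAs in CPM per kb of exon (log axis) in Bcat_Only (blue circles) and Met_Bcat (orange squares), in genome order; open symbols at the bottom mark 0 reads. Lower panel: percentage of each mRNA's 51-base windows with an exact copy in a transcript of another locus. The 5 mRNAs with over 97% of windows copied and mt-Atp8 stand at or below 3.73 CPM per kb, and the other 7 at or above 407.

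Complex I, the NADH dehydrogenase where most electrons enter the chain, had 36 nuclear-encoded members, all measured, with 34 ratios above 0 and a median log2 ratio of 0.22. The medians of complexes III, IV and V were 0.16, 0.25 and 0.29, and that of complex II was near 0. Under scaling to the luminal markers the medians of all 5 complexes lay below 0, from −0.34 for complex II to −0.053 for complex V, and under total counts all lay above 0, from 0.13 for complex II to 0.42 for complex V. Within complex I, core subunits carry the flavin and the iron-sulphur clusters. Ndufs1, the largest of them, had 82.9 CPM in Bcat_Only and 83.3 CPM in Met_Bcat, a log2 ratio of 0.01 (−0.09 to 0.11). Its interval held no difference. Ndufv1, which binds NADH and the flavin, had 82.8 and 95.3 CPM, with a log2 ratio of 0.20 (0.11 to 0.30).

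Among the nuclear-encoded subunits of complex I, the highest and lowest ratios belonged to accessory subunits, which surround the catalytic core. Ndufa12 (mm9 chromosome 10, 93661700 to 93684188) had 337 reads in Bcat_Only against 659 in Met_Bcat, or 18.3 and 31.3 CPM, with a log2 ratio of 0.77 (0.58 to 0.97), the highest of the complex. Ndufa5 had 379 and 724 reads, with a log2 ratio of 0.74 (0.56 to 0.92). Ndufb8 (chromosome 19, 44623062 to 44629930), an accessory subunit of the membrane arm, was the lowest of the nuclear-encoded subunits of complex I. It had 1146 and 1089 reads or 62.2 and 51.7 CPM, with a log2 ratio of −0.27 (−0.39 to −0.15). In Ndufa12, 69.5% of the coding windows recur in the pseudogene Gm15920, and in Ndufa5 and Ndufb8 0% recur elsewhere. Ndufa5 was chosen after its values were seen. The remaining accessory subunits of the Ndufa group all had ratios above 0, 13 of 13 with Ndufa5 and Ndufa12, and of the Ndufb group 9 of 10 did.

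The 4 assembly factors of complex I that the symbols take in had a median of 0.14. Ndufaf1 had 327 and 477 reads, with a log2 ratio of 0.35 (0.14 to 0.56), and Ndufaf4 395 and 584, a log2 ratio of 0.37 (0.18 to 0.56). The intervals of Ndufaf2 and Ndufaf3 held no difference, at log2 ratios of −0.08 (−0.47 to 0.32) and −0.15 (−0.46 to 0.16).

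Complex II, succinate dehydrogenase, is at once an enzyme of the citric acid cycle and of the respiratory chain, and its 4 subunits did not move together. Sdha, the flavoprotein that oxidises succinate (chromosome 13, 74459702 to 74487728), had 4637 reads in Bcat_Only against 5230 in Met_Bcat, or 252 and 248 CPM, with a log2 ratio of −0.02 (−0.08 to 0.04). Sdhb, the iron-sulphur subunit (chromosome 4, 140517118 to 140535108), had 81.6 and 82.7 CPM, with a log2 ratio of 0.02 (−0.08 to 0.12). Sdhc, a membrane anchor (chromosome 1, 173057296 to 173080734), had 102 and 97.6 CPM, with a log2 ratio of −0.06 (−0.15 to 0.03). Sdhd, the other membrane anchor (chromosome 9, 50404443 to 50411954), stood apart from these, with 1623 and 2400 reads or 88.1 and 114 CPM, with a log2 ratio of 0.37 (0.28 to 0.46). Its interval did not overlap those of Sdha, Sdhb and Sdhc. The signs of Sdha and Sdhc turned under total counts and that of Sdhb under scaling to the luminal markers, whereas Sdhd was above 0 under both, at 0.50 and 0.026. None of the coding windows of these genes recurs elsewhere.

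Complex III, the cytochrome bc1 complex, passes electrons from quinol to cytochrome c. Its Rieske iron-sulphur protein Uqcrfs1 had 84.2 CPM in Bcat_Only and 96.7 CPM in Met_Bcat, a log2 ratio of 0.20 (0.10 to 0.29). The core protein Uqcrc1 had 130 and 137 CPM, with a log2 ratio of 0.083 (0.0042 to 0.16), and Cyc1, the cytochrome c1 gene that the symbol rule leaves out, had 68.0 and 76.5 CPM, with a log2 ratio of 0.17 (0.064 to 0.28). The ratios of all of these turned below 0 under scaling to the luminal markers. Among the nuclear-encoded members small subunits held both ends. Uqcr11 (chromosome 10, 79865742 to 79869575) was highest, with 450 and 760 reads, with a log2 ratio of 0.56 (0.39 to 0.73). In Uqcr11 32.2% of coding windows recur in the pseudogene Gm16418. Uqcrq (chromosome 11, 53241424 to 53244333) was lowest, with 1017 and 1113 reads, with a log2 ratio of −0.06 (−0.19 to 0.06).

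Cytochrome c, the soluble carrier between complexes III and IV, is encoded by Cycs (chromosome 6, 50512562 to 50516537). It had only 44 reads in Bcat_Only and 59 in Met_Bcat, or 2.39 and 2.80 CPM, with a log2 ratio of 0.23 (−0.36 to 0.83) that does not separate the libraries. Every coding window of Cycs recurs elsewhere, but over its whole transcripts only 26.0% of windows do. The start of its coding sequence, bases 1 to 90 of 315, is shown with the same bases of the retrocopy Gm10053 on chromosome 19, in the GENCODE vM21 transcripts, since they hold the same letters.

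Cycs: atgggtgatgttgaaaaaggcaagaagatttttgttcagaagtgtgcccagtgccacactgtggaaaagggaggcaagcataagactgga

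Gm10053: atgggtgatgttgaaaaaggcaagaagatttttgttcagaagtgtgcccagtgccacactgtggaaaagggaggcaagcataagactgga

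The 2 sequences had 0 differences over all 315 coding bases, and Gm10053 itself had 32 and 30 reads. The level and ratio of Cycs are therefore uncertain.

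The same held for other nuclear members. In 19 nuclear members, Cycs among them, at least 20% of coding windows recur at another locus, mostly in processed pseudogenes. Shares here are of coding windows, unlike those of the mitochondrial mRNAs above, which are of whole transcripts. Over whole transcripts the shares were lower, such as 8.57% for Atp5l and 18.2% for Ndufb4. Several of the genes with high coding shares had few reads, but others did not. Atp5l and Atp5g2, of the membrane part of the ATP synthase, each have 100% of coding windows recurring and had 9 and 13 reads and 13 and 13 reads. Atp5g1, which like Atp5g2 encodes the rotating c subunit, has 99.4% and had 63 and 116 reads. Cox7c, a small subunit of complex IV, has 81.8% and had 61 and 55 reads, and Ndufs5, of complex I, has 72.0% and had 42 and 71 reads. In Ndufb4 and Ndufab1, both of complex I, 100% and 99.5% recur, and they had 171 and 272 reads and 271 and 392 reads. Uqcrb of complex III, with 71.7%, had 321 and 352 reads, and Atp5h of the ATP synthase, with 66.5%, had 817 and 1205. The levels of these genes are uncertain, and the part of the copies in them was not tested. The 67 measured members with under 20% of coding windows recurring had a median log2 ratio of 0.21, and the 17 with at least 20% had 0.35.

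**Figure D4:**
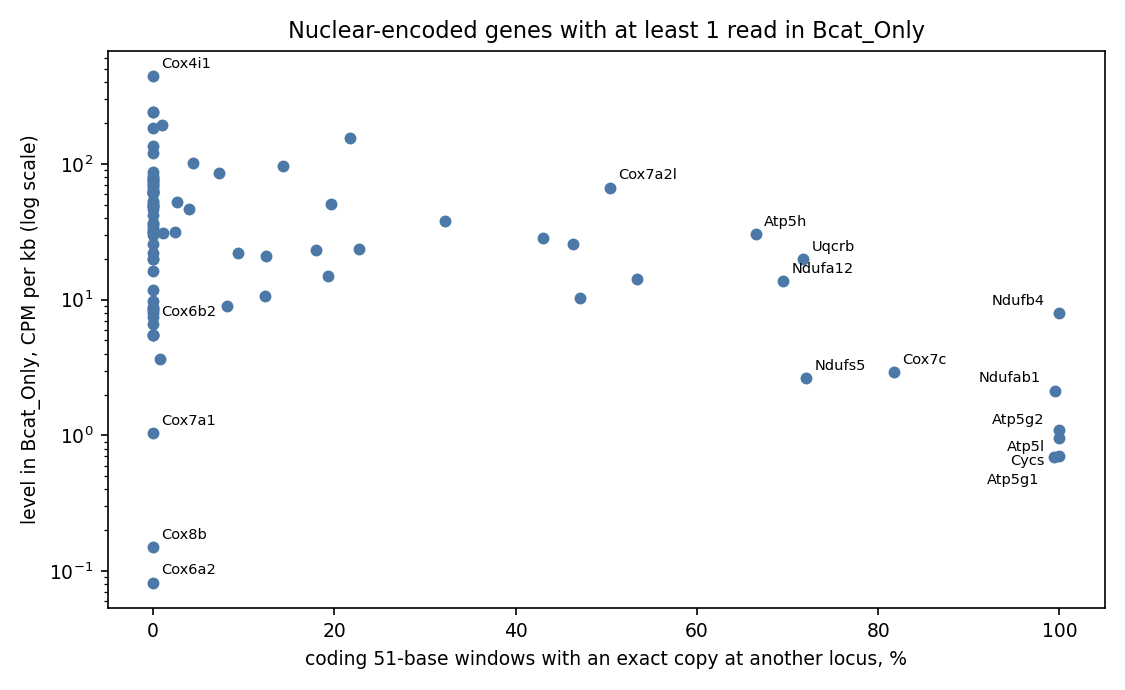
Level in Bcat_Only in CPM per kb of exon (vertical log axis) against the percentage of coding 51-base windows that recur at another locus (horizontal axis), 1 point for each nuclear-encoded gene with at least 1 read. Genes with 99% or more recurring windows lie at or below 7.93 CPM per kb, while the points at 0% reach from 0.0825 for Cox6a2 to 443 for Cox4i1.

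Complex IV, cytochrome c oxidase, reduces oxygen, and several of its small subunits exist as a general isoform and one that is known from muscle, lung or testis. The general isoforms dominated in both libraries. Cox4i1, the regulatory subunit found in most tissues, had 5542 and 8200 reads, or 301 and 389 CPM, with a log2 ratio of 0.37 (0.32 to 0.42). Per kb it made up 98.8% of the Cox4i pair in Bcat_Only and 99.2% in Met_Bcat. Cox4i2, its counterpart known from lung, had 80 and 78 reads, with a log2 ratio of −0.23 (−0.70 to 0.24). Of the Cox6a and Cox8 isoforms, Cox6a1 had 1999 and 2911 reads and Cox8a 1361 and 1990, with log2 ratios of 0.35 (0.27 to 0.43) and 0.35 (0.25 to 0.45). Cox6a2 and Cox8b, isoforms of heart and skeletal muscle, each had 1 read in Bcat_Only and 0 in Met_Bcat, and Cox7b2 and Cox8c had 0 in both libraries. Of 15 striated muscle markers, Myh1, Myh4, Myh7 and Tnnc2 had 0 reads in both libraries, and their summed level was 8.85 CPM in Bcat_Only and 7.12 CPM in Met_Bcat.

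The Cox7 isoforms were more evenly balanced. Cox7a2, the general isoform, had 1067 and 1303 reads, with a log2 ratio of 0.09 (−0.02 to 0.21), and Cox7a2l, which joins complexes III and IV into supercomplexes, had 1407 and 2315, a log2 ratio of 0.52 (0.43 to 0.62), the highest of the measured complex IV genes. Per kb, Cox7a2 made up 53.2% of the family in Bcat_Only and 45.6% in Met_Bcat, Cox7a2l 46.1% and 53.2%, and the muscle isoform Cox7a1 0.723% and 1.23%, with 7 and 17 reads. Thus the order of Cox7a2 and Cox7a2l differed between the libraries. In Cox7a2l 50.4% of coding windows recur in the pseudogene Gm6969, which limits this comparison. Cox7b had a log2 ratio of 0.43 (0.32 to 0.53).

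Cox6b2 had the lowest ratio of the nuclear members. The gene (chromosome 7, 4703396 to 4704696, minus strand) encodes the isoform of subunit 6b that is known from testis and sperm. It had 67 reads in Bcat_Only and 7 in Met_Bcat, or 3.64 and 0.332 CPM, with a log2 ratio of −3.45 (−4.82 to −2.33), or 10.9-fold lower (5.03 to 28.3). It reached the minimum level through Bcat_Only alone. Its general counterpart Cox6b1 had 2224 and 3213 reads, with a log2 ratio of 0.34 (0.26 to 0.42) that was −0.0073 under scaling to the luminal markers. Per kb, Cox6b2 made up 2.69% of the pair in Bcat_Only and 0.199% in Met_Bcat. None of its coding windows recurs elsewhere and no gene of the table overlaps it. Of 9 testis and sperm markers, Prm1, Prm2, Tnp1, Tnp2, Odf1 and Pgk2 had 0 reads in both libraries, and all 9 together had 3 reads in Bcat_Only and 2 in Met_Bcat.

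Ndufa4l2 showed a like direction at a smaller size. Its relative Ndufa4, once assigned to complex I and now known as a subunit of complex IV, had 1667 and 1990 reads, with a log2 ratio of 0.06 (−0.03 to 0.16). Ndufa4l2 (chromosome 10, 126951995 to 126954208) is known as a hypoxia-induced gene of vascular mural cells. It had 174 reads in Bcat_Only and 83 in Met_Bcat, or 9.44 and 3.94 CPM, with a log2 ratio of −1.26 (−1.66 to −0.88), past the 1.5-fold rule but past the 2-fold rule only under scaling to the luminal markers. Its share of the pair per kb was 5.08% in Bcat_Only and 2.09% in Met_Bcat. Smooth muscle markers were lower in 9 of 9 genes and endothelial markers in 6 of 9 by the 2-fold rule in the same libraries, beside 14.6% of all genes, and their part in the ratio of Ndufa4l2 was not tested. The gene overlaps Shmt2 by 14 bases on the other strand.

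The ATP synthase was the complex in which all measured nuclear members, 13 of 15, had ratios above 0 under TMM scaling, 4 of the 13 under scaling to the luminal markers. Its catalytic head F1 carried most of the reads. Atp5b, the catalytic beta subunit, had 15029 reads in Bcat_Only and 21584 in Met_Bcat, or 816 and 1024 CPM, with a log2 ratio of 0.33 (0.30 to 0.36). It lies wholly within the span of Baz2a on the same strand, so that reads of both genes may not be separable. Atp5a1, the alpha subunit, had 13936 and 18280 reads, or 756 and 867 CPM, with a log2 ratio of 0.20 (0.17 to 0.23). Both ratios lay below 0 under scaling to the luminal markers, at −0.016 for Atp5b and −0.15 for Atp5a1. The other subunits of the head were Atp5c1, Atp5d and Atp5e, with log2 ratios of 0.29 (0.22 to 0.36), 0.47 (0.39 to 0.55) and 0.11 (0.01 to 0.21).

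In the membrane part of the synthase, the c ring was encoded nearly wholly by Atp5g3 as far as reads could be assigned. Atp5g3 had 2529 and 3817 reads, with a log2 ratio of 0.40 (0.33 to 0.47), and per kb made up 97.2% of the Atp5g genes in Bcat_Only and 97.6% in Met_Bcat. None of its coding windows recurs elsewhere, in contrast to Atp5g1 and Atp5g2. Atp5g1 (chromosome 11, 95930166 to 95936984) nevertheless had the highest ratio of the complex, 0.69 (0.23 to 1.15). Atp5f1 (chromosome 3, 105745616 to 105763017), a subunit of the peripheral stalk, had the lowest, with 1953 and 2279 reads and a log2 ratio of 0.03 (−0.06 to 0.12).

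Levels per kb placed the complexes in a like order in both libraries. The median over measured nuclear subunits was 66.6 CPM per kb in Bcat_Only and 82.0 in Met_Bcat for complex IV, 61.6 and 69.1 for complex III, 50.6 and 50.4 for complex II, 32.2 and 36.1 for complex I and 30.9 and 39.0 for complex V. The order of complexes I and V differed between the libraries. The highest subunit of complex I was Ndufa6, at 120 and 157 CPM per kb, and that of complex V was Atp5a1, at 241 and 277. The lowest of complex I, Ndufab1 at 2.14 and 2.70, and of complex V, Atp5g1 at 0.697 and 1.12, are genes whose coding windows nearly all recur elsewhere. Over their whole transcripts only 7.06% and 10.9% of windows do. The exon lengths that their counts were divided by are long, at 6883 and 4908 bases. The part of copies and of exon length in these levels was not tested.

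Promoters of the nuclear members were searched for 3 motifs long linked to respiratory chain genes, in windows from 250 bases before to 50 bases after the start in the RefSeq table (GRCm38.p6). The motifs were GCATGCGC, the core of the NRF1 site, CCGGAAG, an ETS site as bound by the GABP factor, and ATGGCGGC, a YY1 site, each on both strands. Matches to the NRF1 core on opposite strands can overlap, since its ends are complementary in part. Of 92 members 72 were matched, with 77 promoters. NRF1 letters were found in 12 of them (15.6%), beside 4.71% of 12744 promoters of genes averaging at least 1 CPM and 2.71% of all 32851. ETS letters were found in 17 (22.1%), beside 15.4% and 8.86%, and YY1 letters in 7 (9.09%), beside 4.22% and 2.24%. The following 100 bases just before the start of 3 members on the minus strand show such matches in capitals, with the ETS letters in Cox6b1 (chr7:30626115-30626214) and Sdhd (chr9:50603850-50603949), and the NRF1 letters in Cycs (chr6:50566570-50566669).

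Cox6b1: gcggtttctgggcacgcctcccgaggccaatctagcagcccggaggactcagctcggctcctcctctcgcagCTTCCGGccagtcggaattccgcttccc

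Sdhd: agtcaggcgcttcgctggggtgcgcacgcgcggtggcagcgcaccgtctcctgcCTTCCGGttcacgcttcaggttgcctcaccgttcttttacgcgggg

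Cycs: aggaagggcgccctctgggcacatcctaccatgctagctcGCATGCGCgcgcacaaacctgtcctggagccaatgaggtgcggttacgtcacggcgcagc

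The capitals in Cox6b1 and Sdhd are the ETS letters as they read from the other strand. Members with a motif had ratios close to those without. The median log2 ratio, here without the addition to CPM, was 0.26 over 10 measured genes with the NRF1 letters and 0.23 over 57 without, 0.31 over 16 with the ETS letters and 0.23 over 51 without, and 0.27 over 6 with the YY1 letters and 0.24 over 61 without. A match is a description of the sequence and not a bound site.

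Other genes of mitochondrial energy metabolism, from lists that hold no member, had medians between 0.14 and 0.29 under TMM scaling, all of them below 0 under scaling to the luminal markers. Mitochondrial ribosomal proteins, which translate the mitochondrial mRNAs, had a median of 0.27 with 68 of 75 ratios above 0, beside 52.3% of all genes. Under scaling to the luminal markers 26 of the 75 lay above 0. By the 2-fold rule 2 of these genes were higher and 0 lower, beside 4.42% and 14.6% of all genes. They were Mrps18a at 73.2 and 160 CPM and Mrps6 at 13.8 and 32.5 CPM. Under scaling to the luminal markers neither was called, at log2 ratios, here with CPM plus 0.5, of 0.78 and 0.87. Genes of mitochondrial DNA transcription, replication and RNA processing had a median of 0.29, with 0 of 31 higher or lower. Tfam, which packages the mitochondrial genome and starts its transcription, had 39.6 CPM in Bcat_Only and 51.5 CPM in Met_Bcat, a log2 ratio of 0.38 (0.24 to 0.52), and Polrmt, the mitochondrial RNA polymerase, 16.1 and 23.1 CPM, with a log2 ratio of 0.52 (0.31 to 0.73). The helicase gene Peo1 had 39.0 and 70.6 CPM, with a log2 ratio of 0.86 (0.73 to 0.99). Under TMM scaling the ratios of Tfam, Polrmt and Peo1 thus lay above 0 and those of the measured mitochondrial mRNAs below. Of the 31 genes of the list 27 lay above 0 and 4 below, and under scaling to the luminal markers 13 lay above 0.

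Protein import genes had a median of 0.25, with 26 of 27 ratios above 0, beside 52.3% of all genes. Under scaling to the luminal markers 11 of the 27 lay above 0. By the 2-fold rule 0 import genes were higher or lower. For this list and those that follow in this paragraph, 4.42% of all genes were higher and 14.6% lower. The chaperonin genes Hspd1 and Hspe1 had 66.3 and 115 CPM and 21.4 and 32.5 CPM. In the list of mitochondrial translation the median was 0.17 over 18 genes, 0 of them higher or lower. Its elongation factor gene Tufm had 71 and 172 reads, with a log2 ratio of 1.08 (0.68 to 1.5), while Lars2, which charges mitochondrial leucine tRNA, had 435 and 334 CPM, with a log2 ratio of −0.38 (−0.43 to −0.34). Assembly factors outside the symbol rule had a median of 0.15 over 47 genes, with 1 higher, Lyrm7, a chaperone for the Rieske protein, at 23 and 152 reads or 5.78-fold (3.71 to 9.39). Other subunits and carriers had a median of 0.21 over 33 genes, with 0 past the rule. Aifm1, needed for complex I assembly, had 53.7 and 95.5 CPM, and Adck3, of coenzyme Q synthesis, 20.3 and 11.5 CPM.

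The citric acid cycle and pyruvate entry list had a median of 0.14 over 28 genes, with 0 higher and 1 lower, beside 4.42% and 14.6% of all genes. This was Pdk4, a kinase that shuts pyruvate dehydrogenase, with 394 reads in Bcat_Only and 143 in Met_Bcat, a log2 ratio of −1.66 (−1.94 to −1.38). Its relative Pdk1 had 97.7 and 45.9 CPM, with a log2 ratio of −1.09 (−1.20 to −0.98) that missed the 2-fold rule, except under scaling to the luminal markers. Of the 18 measured regulators of mitochondrial genes 0 were past the rule, with a median of 0.16, and 2 were lower under scaling to the luminal markers, Hif1a and Ppargc1b. Ppargc1a, a coactivator that raises mitochondrial gene expression, had 18.6 and 22.3 CPM, with a log2 ratio of 0.26 (0.061 to 0.47). Its relative Ppargc1b had 5.81 and 2.14 CPM, with a log2 ratio of −1.44 (−1.98 to −0.93). Hif1a, the oxygen-regulated factor, had 579 and 306 CPM, with a log2 ratio of −0.92 (−0.96 to −0.87), and the orphan receptor gene Esrrg 8.58 and 18.2 CPM, with a log2 ratio of 1.09 (0.82 to 1.36).

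**Figure D5:**
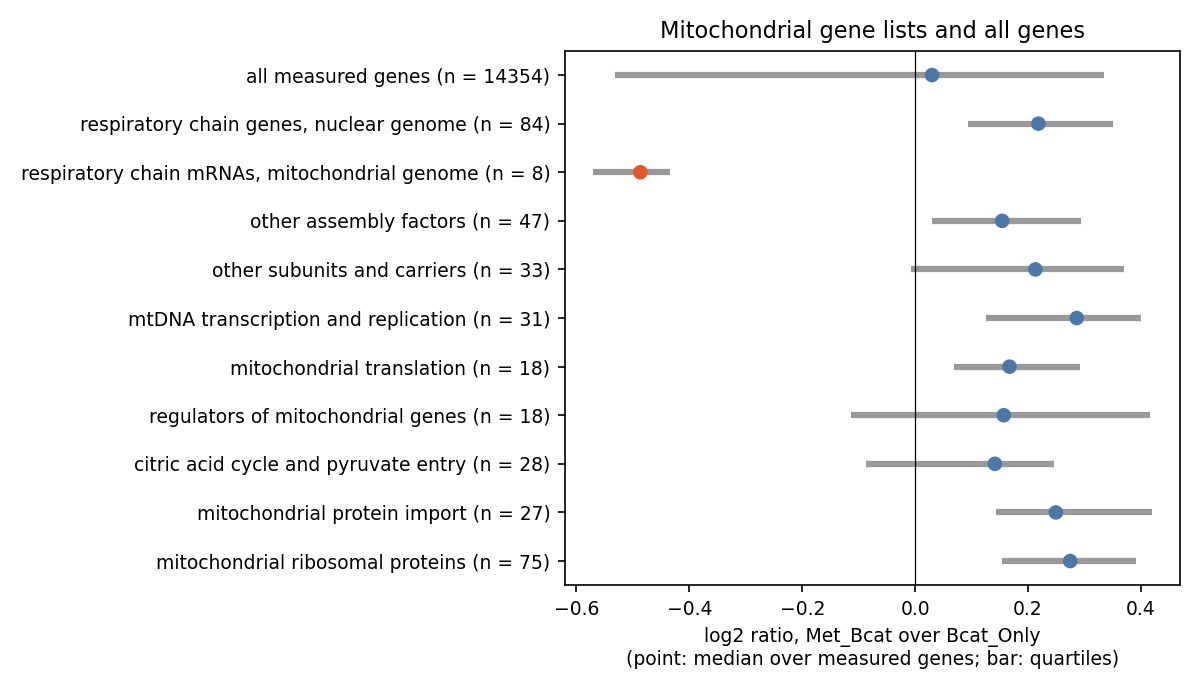
Median (points) and quartiles (bars) of the log2 ratio of Met_Bcat over Bcat_Only under TMM scaling (horizontal axis) for all measured genes, the nuclear-encoded and mitochondrially encoded members and 8 other gene lists (rows, with the number of measured genes). The nuclear-encoded lists lie between 0.14 and 0.29, the mitochondrial mRNAs at −0.49 and all genes at 0.030.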

How the data were processed

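RNA of prostate tumour tissue from 1 mouse per genotype was sequenced as single-end reads of 51 bases from a stranded mRNA kit, per the labels' protocols. The authors deposited raw counts of reads for 27376 genes, without normalization. TopHat2 version 2, HTSeq, edgeR and the build mm9 appear in the submitters' processing notes. How strand and reads with several matches were handled is not given in the sources used here. Exon length is another value that the authors deposited, in bases per gene, and it served for levels per kb. Columns were matched to samples by the sample number in their headings.

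TMM factors (edgeR 4.0.16, R 4.3.3) were 0.955 for Bcat_Only and 1.05 for Met_Bcat. Ratios carry exact Clopper-Pearson intervals at 95%, conditional on the summed reads (Python 3.11.15, scipy 1.17.1). Medians, other than those by promoter motif, use log2 of CPM plus 0.5 over genes averaging at least 1 CPM. On simulated data of 14354 genes the intervals held the true ratio for 95.4%, and 0 unchanged genes were called. This checks how the intervals were computed and is not a rate of false calls between mice or genotypes. DESeq2 1.42.0 size factors were 1 alternative scaling. Coordinates are those of the table, on mm9, unless a build is named.

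The members and gene lists were chosen with earlier results of these data known. The named genes are the 13 mitochondrial mRNAs, Sdha to Sdhd and Cycs, members past the 2-fold rule, the highest and lowest ratio of complexes I, III, IV and V, the isoform families, 7 catalytic subunits, 4 genes outside the rule (Cyc1, Tfam, Polrmt, Ppargc1a) and up to 3 genes of each pathway list, ranked by the near end of their interval. Others are given as values. Not every gene under this rule is reported here, but all count in their groups. Of 434 genes listed in 9 pathway and 14 cell type lists, 423 were found. Of the cell type lists not given above, the summed CPM in Bcat_Only and Met_Bcat was 109 and 19.5 for adipocytes, 62.9 and 37.2 for T and NK cells, 657 and 348 for endothelium, 89.2 and 33.3 for erythroid cells and 6877 and 4.74 for seminal vesicle. The search for recurring windows was added after the data were seen. No samples were left out.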

Additional observations from a re-analysis of the deposited data

How the results depend on the processing

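The gap between mitochondrial and nuclear medians, −0.71, ranged from −0.73 without mt-Nd6 to −0.65 over members with under 20% of coding windows recurring elsewhere, and 0 members were higher under every alternative run. The nuclear median of 0.22 was 0.35 under total counts and, reversed, −0.12 with libraries scaled to the luminal markers, which moves every log2 ratio by −0.34. Of the 13 luminal markers themselves 8 had ratios above 0 and 5 below. The mitochondrial median of −0.49 was −0.35 under total counts, −0.83 under scaling to the luminal markers and −0.46 with a minimum of 10 CPM. It was −0.44 over members with under 20% of coding windows recurring, −0.51 without mt-Nd6 and −0.46 without mt-Co2. The count of 2 lower members was 0 with a minimum of 10 CPM, which leaves out both genes. It was 1 over members with under 20% of coding windows recurring and 1 without mt-Co2. Under scaling to the luminal markers it was 3, with Ndufa4l2 added. The same scaling ended the calls of Mrps18a and Mrps6 and added Pdk1, Hif1a and Ppargc1b as lower. With the members alone as the denominator, mitochondrial mRNAs took 82.9% of reads in Bcat_Only and 74.5% in Met_Bcat. Of 71 named genes 4 changed sign under total counts and 15 under scaling to the luminal markers, and 0 did under DESeq2 size factors, TMM without mitochondrial genes or a pseudocount of 2 CPM. The alternatives on recurring windows, on subunits only, without mt-Nd6 and without mt-Co2 were chosen after seeing the data. No paired analysis was possible because each genotype has 1 library, and for the same reason no replicate could be left out. Depth limits the rare isoforms and the genes with copies, such as Cycs, whose interval of the ratio runs from 0.780 to 1.77.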

Other observations

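Some genes that feed or tap the proton gradient were chosen after their values were seen and are given as values. The ADP/ATP carriers differed in direction: Slc25a4, the isoform of heart and muscle, had 140 CPM in Bcat_Only and 117 CPM in Met_Bcat, a log2 ratio of −0.26, and Slc25a5, the isoform of dividing cells, had 138 and 176 CPM, a log2 ratio of 0.35. The intervals of their ratios, 0.789 to 0.882 and 1.22 to 1.35, did not overlap. Ucp2, an uncoupling protein gene, had 10977 and 15262 reads, a log2 ratio of 0.28. Nnt, the transhydrogenase that makes NADPH from the gradient, had 805 and 569 reads, a log2 ratio of −0.69. Among regulators, Nrf1 had 30.4 and 31.4 CPM, Gabpa 62.4 and 73.1 CPM, Esrra 29.6 and 34.5 CPM and Myc 105 and 142 CPM. Under scaling to the luminal markers, which moves log2 ratios by −0.34, those of Ucp2, Nrf1, Gabpa and Esrra would lie below 0.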
